A study of Mus musculus with 14 samples.

Results

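The genes described here are 10 mouse genes of steroid hormone synthesis, Star, Cyp11a1, Cyp17a1, Cyp19a1, Hsd3b1, Hsd17b1, Hsd17b7, Nr5a1, Scarb1 and Fdx1, chosen by name from the 21853 genes of the expression table. RNA sequencing was performed on the ovary and the uterus of 28-week-old female C57BL/6J mice, giving 14 libraries from 7 mice. The 3 mice of the old control (OC) group received normal saline into the tail vein, and the 4 mice of the old treatment (OT) group received conditioned medium of human amniotic membrane-derived mesenchymal stem cells (AMSC-CM), pooled from 3 donors. The OT mice were injected 6 times at intervals of 4 d, a single dose was set at 1 µL per g of body weight, and both groups had first received pregnant mare serum gonadotropin (10 IU) and, 48 h later, human chorionic gonadotropin (10 IU), so that every mouse studied here, control or treated, had been stimulated with gonadotropins. No young mice were among the libraries, so the controls are aged mice.

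Steroid hormones are made from cholesterol. In the ovary, theca cells turn cholesterol into androgens, granulosa cells turn androgens into estrogens, and the corpus luteum, which forms from the follicle after ovulation, makes progesterone. The scavenger receptor encoded by Scarb1 takes up cholesterol from lipoproteins, Star moves it into the mitochondrion, and Cyp11a1, which receives electrons from the ferredoxin Fdx1, cuts its side chain to give pregnenolone. Hsd3b1 turns pregnenolone into progesterone, Cyp17a1 makes androgens, Cyp19a1 is the aromatase that makes estrogens, and Hsd17b1 activates estrone to estradiol. Hsd17b7 has a role in estradiol formation and also acts as a reductase in cholesterol synthesis. Nr5a1 encodes steroidogenic factor 1, a nuclear receptor that switches on many of these genes.

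In GRCm38 (mm10), Star lies at chr8:25806555-25815982, Cyp11a1 at chr9:58006411-58027023 and Hsd17b1 at chr11:101078411-101080527, all on the plus strand. On the minus strand lie Cyp17a1 at chr19:46667165-46673172, Cyp19a1 at chr9:54165937-54268110, Hsd3b1 at chr3:98852194-98859794 and Hsd17b7 at chr1:169949535-169969241. Nr5a1 at chr2:38692656-38714542, Scarb1 at chr5:125277087-125341094 and Fdx1 at chr9:51943306-51963556 are also on the minus strand. Cyp11a1 shares stretches of its strand with the annotated gene Gm17322 and Scarb1 with Gm42633, and Hsd3b1 has near-identical paralogs, so reads may have been split between these genes in the counting. The paralogs Hsd3b2 and Hsd3b3 were at most 0.0704 FPKM in any library, and Hsd3b6 reached 3.59 FPKM in the ovary.

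The upstream regions of 3 genes are shown. Hsd3b1 differed most between the organs, and Hsd17b7 was the gene that was higher in OT uteruses. Fdx1 stayed near its own level in every ovary, as did Hsd3b1 and Cyp11a1, which varied less. Hsd3b1 and Fdx1 were also the only genes with a match in the search described below, and the regions of Cyp11a1 and Cyp19a1 are not shown. They are RefSeq sequences in GRCm38.p6, 5′ to 3′ on the gene's strand, up to 250 bases before the start site, and capitals mark the letters GATAA or, on the other strand, TTATC. The Hsd3b1 region is chr3:98859795-98860044, the Fdx1 region is chr9:51963603-51963852, and the Hsd17b7 region is chr1:169969242-169969455, which holds 214 bases because an annotated exon covers the rest of the window.
Hsd3b1: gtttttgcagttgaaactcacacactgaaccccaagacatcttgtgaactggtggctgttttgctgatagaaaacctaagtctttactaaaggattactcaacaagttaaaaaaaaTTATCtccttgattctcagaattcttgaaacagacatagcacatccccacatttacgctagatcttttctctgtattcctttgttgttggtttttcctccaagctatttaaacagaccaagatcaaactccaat
Fdx1: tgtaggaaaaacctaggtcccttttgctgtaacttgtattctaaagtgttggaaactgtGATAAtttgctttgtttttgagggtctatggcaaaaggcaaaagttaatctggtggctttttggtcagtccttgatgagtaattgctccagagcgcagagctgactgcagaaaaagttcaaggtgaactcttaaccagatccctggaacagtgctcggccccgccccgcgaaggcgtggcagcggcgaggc
Hsd17b7: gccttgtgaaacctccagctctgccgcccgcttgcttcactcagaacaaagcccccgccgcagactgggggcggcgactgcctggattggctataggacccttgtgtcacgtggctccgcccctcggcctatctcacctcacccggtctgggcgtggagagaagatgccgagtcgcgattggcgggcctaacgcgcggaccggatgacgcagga

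Regions of 5 of the 10 genes were found, those of Cyp11a1, Cyp19a1, Hsd17b7, Hsd3b1 and Fdx1, with 8 start sites in all. In up to 250 bases before each start, both strands were searched for 4 runs of letters. AAGGTCA and AAGGCCA are known to be bound by steroidogenic factor 1 and GATAA by GATA factors, and TGACGTCA is the cyclic AMP response element. The Hsd17b7 region held 214 bases. A Cyp11a1 region held 0 bases, so no letters could match there, though it is counted among the 8. GATAA was present in 2 of the 8 regions, 134 bases before the Hsd3b1 start and 191 bases before the Fdx1 start. It was in 22.6% of the 32851 mouse promoters searched. AAGGTCA (4.08% of promoters), AAGGCCA (5.24%) and TGACGTCA (1.55%) were in none of the 8. A match is a run of letters and was not measured as a binding site.

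Values are FPKM, fragment numbers scaled to the length of the transcript and to the mapped fragments of the library, a level per length that can be compared between genes. The number of reads behind each value is unknown. Replicates of a group correlated across genes with r between 0.965 and 0.989, and no libraries were identical. The organ labels were checked against markers. The summed FPKM of 9 oocyte markers was 18.6 to 43.2 in the ovaries and 1.07 to 2.27 in the uteruses, where the oocyte gene Zp3 and the granulosa gene Fshr were listed at 0 in all 7 libraries. Hoxa10, a gene of the uterine tract, was 138 to 236 FPKM in the uteruses and 0.572 to 53.4 FPKM in the ovaries, highest in OC2 and OT3, and the oviduct gene Ovgp1 was 424 to 942 FPKM in the ovaries, so the ovary libraries held RNA of neighbouring tract as well. In whole organs, fewer cells of a type and less RNA per cell cannot be told apart.

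The question of where the pathway is expressed was addressed by comparing the organs of the same mice, matched by the codes in the labels. The 10 genes made up 1.65% to 2.09% of all FPKM in the ovaries and 0.0104% to 0.0149% in the uteruses, and each was higher in the ovary than in the uterus in 7 of 7 mice. In the fit of all 14 libraries, 7 of the 7 genes that passed a filter of a mean of 0.5 FPKM in each organ were called higher in the ovary (limma, adjusted p under 0.05 and at least 2-fold), where 9.59% of 14557 tested genes were, and 0 were called higher in the uterus, where 10.0% were. Cyp17a1, Cyp19a1 and Nr5a1 were called higher in the ovary too, but entered that fit only through their ovary level.

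**Figure D1:**
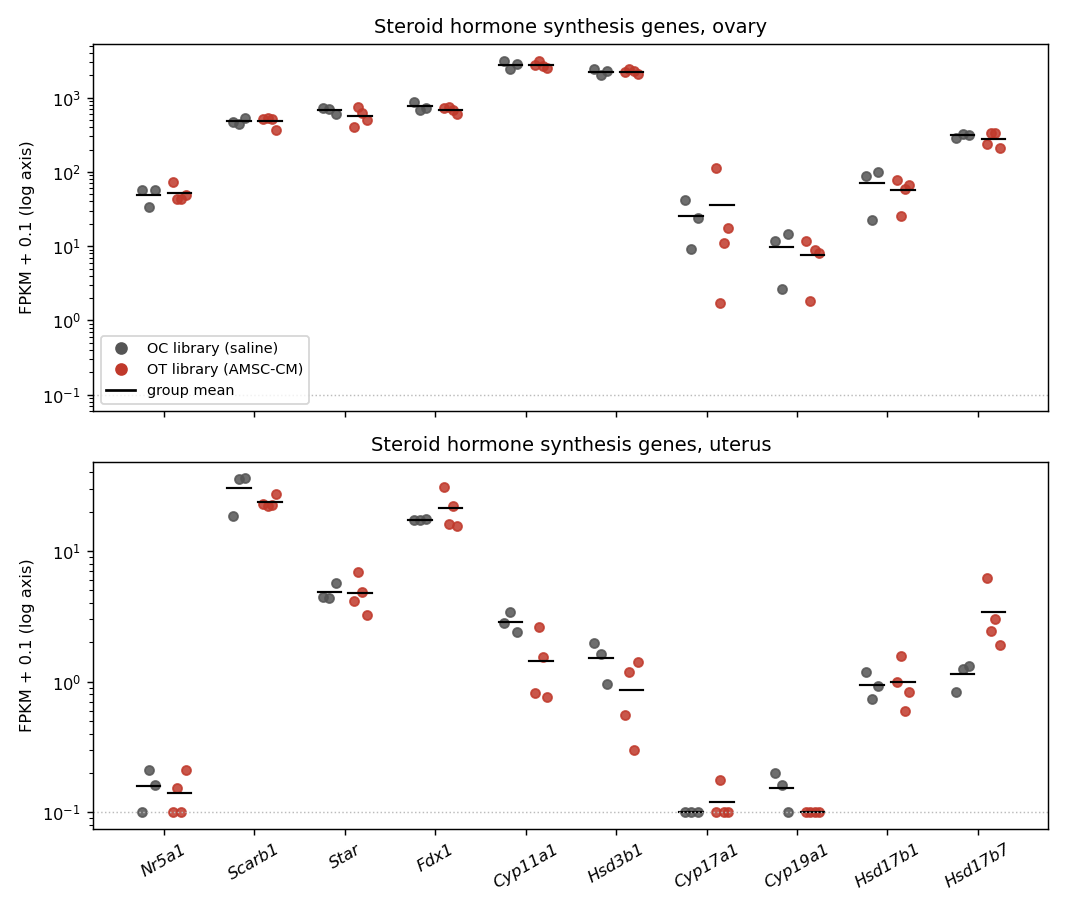
FPKM + 0.1 on a log axis for the 10 genes in the ovary (top) and the uterus (bottom), with a point for each library (grey OC, red OT) and a line at the group mean; the dotted line is a value of 0. In the ovary Cyp11a1 and Hsd3b1 lie above 2000 FPKM in all 7 libraries and Cyp17a1 runs from 1.62 to 112 FPKM, while in the uterus only Hsd17b7 has OT libraries that are all above the OC libraries.

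The 2 genes that complete progesterone synthesis from cholesterol dominated the ovary. Cyp11a1, the side-chain cleavage enzyme, was 3094, 2456 and 2822.5 FPKM in OC1, OC2 and OC3, and 2767, 3148, 2672 and 2521 FPKM in OT1 to OT4. Hsd3b1 was 2414, 2032 and 2286.5 FPKM in the OC ovaries and 2197, 2408, 2300 and 2051 FPKM in the OT ovaries. By mean level over 7 ovaries Cyp11a1 ranked 3rd and Hsd3b1 4th of all genes in the table. Cyp11a1 was above Hsd3b1 in 7 of 7 ovaries and their ranges did not overlap.

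Below them came the genes of electron transfer and cholesterol entry. Fdx1, the ferredoxin, had a mean of 722 ± 77.1 FPKM (SD, n = 7), and Star, the cholesterol carrier, a mean of 617 ± 129 FPKM. Fdx1 was higher than Star in 5 of 7 ovaries and Star was higher than the lipoprotein receptor Scarb1 (483 ± 60.9 FPKM) in 6 of 7, so these neighbours in the order overlapped. Hsd17b7 (293 ± 50.0 FPKM) was below Scarb1 in all 7 ovaries, with no overlap, and above Hsd17b1 in all 7.

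The genes of the follicle's androgen and estrogen steps were lower. Hsd17b1 had a mean of 62.6 ± 29.8 FPKM, the regulator Nr5a1 50.8 ± 12.8 FPKM, Cyp17a1 31.0 ± 38.0 FPKM and the aromatase Cyp19a1 8.42 ± 4.83 FPKM (SD, n = 7 ovaries). Their ranges overlapped from each to the next, and the SD of Cyp17a1 was larger than its mean.

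In the uterus the order was another. Scarb1 led with 26.3 ± 6.91 FPKM, followed by Fdx1 with 19.4 ± 5.35 FPKM and Star with 4.70 ± 1.19 FPKM (SD, n = 7). Hsd17b7, Cyp11a1, Hsd3b1 and Hsd17b1 followed with means of 2.33, 1.96, 1.04 and 0.877 FPKM and overlapping ranges. The remaining genes were near 0. Nr5a1 was listed at 0 in 3 of 7 uteruses and reached 0.112 FPKM, Cyp19a1 was listed at 0 in 5 and reached 0.101 FPKM, and Cyp17a1 was listed at 0 in 6 and was 0.0771 FPKM in OT2.

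The difference between the organs was largest for Hsd3b1 and Cyp11a1, which ranked 1st and 2nd of the 14557 genes for a higher level in the ovary. On the log2(FPKM + 0.1) scale Hsd3b1 was higher by 11.09 (SE 0.29, adjusted p = 7.44e-12) and Cyp11a1 by 10.51 (SE 0.23, adjusted p = 2.126e-12). Hsd17b7 differed by 7.30 (SE 0.23), Star by 7.03 (SE 0.17) and Hsd17b1 by 5.89 (SE 0.36). The smallest differences were those of Fdx1, 5.27 (SE 0.14), and Scarb1, 4.20 (SE 0.15, adjusted p = 1.135e-10), whose products also serve cells that make no steroids. As a share of its ovary mean, the uterus mean was 0.0466% for Hsd3b1, 0.0703% for Cyp11a1, 0.762% for Star, 0.796% for Hsd17b7, 2.69% for Fdx1 and 5.44% for Scarb1. For Cyp17a1, Cyp19a1 and Nr5a1, which were listed at 0 in some uteruses, no fold is given; their adjusted p were 1.531e-06, 2.555e-07 and 1.25e-11.

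The rest of the pathway, from lists of related genes, was less uniform. Counts are given for genes that passed the filter in each organ. Of 28 other steroid enzymes and electron donors 26 were in the table and 16 passed in each organ, of which the ovary had more of 3 and the uterus more of 3. Among them Fdxr, the reductase that passes electrons to Fdx1, was 4.24 higher in the ovary on the log2 scale (SE 0.09), and Akr1c18, which inactivates progesterone, 4.74 (SE 0.48). Hsd11b2, which inactivates glucocorticoids, was lower in the ovary, with a log2 difference of -3.20 and means of 13.8 FPKM there and 122 FPKM in the uterus. Of 25 genes of cholesterol supply and storage, 14 were called with a higher ovary level and 0 with a higher uterus level, with the synthesis genes Sc5d (3.84), Msmo1 (3.76) and Hmgcs1 (3.29) and the storage enzyme Soat1 (3.32) having the largest log2 differences. Of 24 genes of gonadotropin signalling and steroidogenic regulation, 18 passed in each organ and 10 of these were called higher in the ovary, among them the inhibin subunit Inha (6.91) and the nuclear receptor Nr5a2 (6.07). Of 6 steroid receptors that passed in each organ, 0 were called higher in the ovary, and the uterus had more Esr1 and Pgr (log2 differences of -1.43 and -2.49).

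Among the 7 ovaries, the genes fell into those that hardly varied and those that varied widely. The SD of the log2 level was 0.10 for Hsd3b1, 0.14 for Cyp11a1, 0.15 for Fdx1 and 0.20 for Scarb1, near the median of 0.17 over all tested genes. It was 0.27 for Hsd17b7, 0.33 for Star and 0.36 for Nr5a1. It was 0.86 for Hsd17b1, 1.17 for Cyp19a1 and 1.89 for Cyp17a1, which is more than for 97.2%, 98.6% and 99.7% of tested genes.

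These wide differences lay between mice of the same group. Hsd17b1 was 89.1, 22.3 and 99.2 FPKM in OC1, OC2 and OC3, and 77.8, 25.2, 58.8 and 65.5 FPKM in OT1 to OT4. Cyp19a1 was 11.6, 2.55 and 14.7 FPKM in the OC ovaries and 11.7, 1.72, 8.70 and 7.94 FPKM in the OT ovaries. The ovaries of OC2 and OT2 were the lowest of their groups for both genes. Cyp17a1, the theca enzyme, was 42.1, 9.18 and 23.6 FPKM in the OC ovaries and 112, 1.62, 10.9 and 17.6 FPKM in the OT ovaries. It was again lowest of its group in OC2 and OT2, and its highest value, in OT1, was 69.3 times its lowest, in OT2.

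Granulosa markers moved with these genes in part. The summed FPKM of 7 granulosa markers other than Hsd17b1 was 334 in OC2 and 327 in OT2, against 551 to 845 in the other 5 ovaries. Inha alone was 259 FPKM in OC2 and 232 FPKM in OT2. Their median deviation from their own means on the log2 scale was -0.72 in OC2 and -0.54 in OT2. Each marker was below its mean in OC2. In OT2 Fshr (-0.97), Inha (-0.87), Inhbb (-1.01) and Gata4 (-0.54) were low. Amh (0.00), Foxl2 (-0.05) and Nr0b1 (-0.06) stayed near their means there. Theca markers other than Cyp17a1 did not move together. Of these 5, Aldh1a1 was lowest of its group in OC2 (151 FPKM) and OT2 (166 FPKM), whereas Insl3 was highest of all ovaries in OC2 (4.67 FPKM) and lowest in OT2 (0.34 FPKM), and the median deviation was -0.01 in OC2, -0.20 in OC3 and -0.21 in OT2. The median deviation of 7 luteal markers from their own means stayed between -0.23 and 0.18 on the log2 scale. Single luteal markers differed in this. Akr1c18 deviated by 1.85 in OC1 (144 FPKM) and -1.01 in OT1 (19.8 FPKM), and Parm1 by -0.67 in OT1 and 0.44 in OT2. Prlr stayed between -0.23 and 0.11. The median deviation of 5 smooth muscle markers ran from -1.08 in OT1 to 0.79 in OC2, with 0.09 in OT2. Hoxa10 was 53.4 FPKM in OC2, 6.09 FPKM in OT2 and 0.572 FPKM in OT1. The part of these cell types in the levels was not tested.

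**Figure D2:**
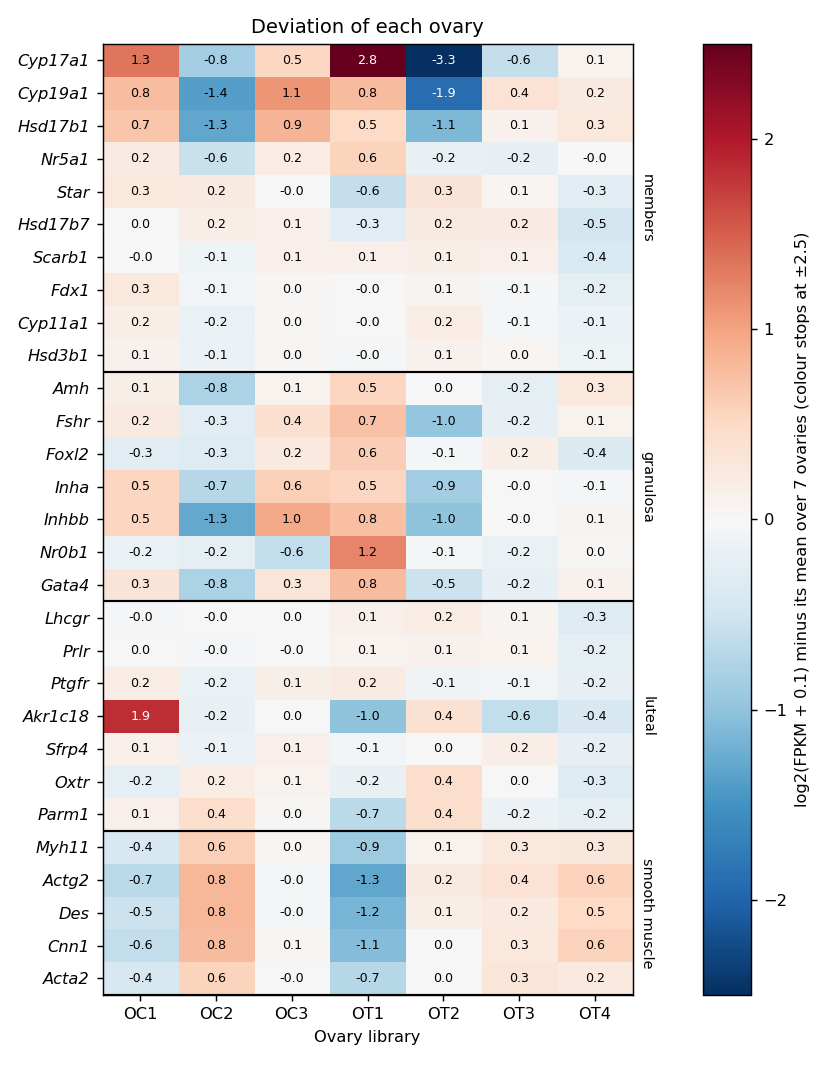
Deviation of each of the 7 ovary libraries (columns) from the gene's mean log2(FPKM + 0.1), for the 10 genes and for granulosa, luteal and smooth muscle markers (rows), with red above and blue below the mean. Cyp17a1, Cyp19a1 and Hsd17b1 are low in OC2 and OT2, where Cyp17a1 deviates by -0.84 and -3.28, while Cyp11a1 and Hsd3b1 stay within 0.19 of their means in every ovary.

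The ratio of the 2 Hsd17b genes changed with the mouse. Hsd17b7 was 14.5 times Hsd17b1 in OC2 and 13.4 times in OT2, and 3.06 to 5.69 times in the other 5 ovaries. In contrast, Cyp11a1 and its electron donor Fdx1 kept a ratio of 3.58 to 4.18 over all 7. The ratio of Cyp11a1 to Star was less steady. Star had its lowest level of 399 FPKM in OT1, the ovary with the most Cyp17a1, so that Cyp11a1 was 6.94 times Star there and 3.46 to 5.01 times elsewhere.

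The genes whose log2 profile over the 7 ovaries was most like that of Cyp19a1, by the root mean square difference of centred values, were Inhba (0.203), Nap1l5 (0.30), Prrt4 (0.321), Slc38a5 (0.323) and Slc26a7 (0.337). Inhba encodes a subunit of activin and inhibin, and its level was lowest in OT2 (8.17 FPKM) and highest in OC3 (73.8 FPKM), as for Cyp19a1. For Hsd17b1 they were Slc26a7 (0.147), Inhbb (0.155), Nap1l5 (0.223), Prrt4 (0.239) and Rimklb (0.251), where Inhbb encodes another activin and inhibin subunit. The profile of Cyp17a1 had no close match, the nearest being Comp (0.716), Olfr1358 (0.839), Tmsb15b2 (1.03), Cyp19a1 (1.04) and Smim10l2a (1.05), of which Comp and Olfr1358 stayed below 3.5 and 0.958 FPKM.

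Whether AMSC-CM was followed by a change in the pathway in the ovary was asked next. None of the 10 genes was called between OT and OC ovaries at the cutoffs of the study, at least 2-fold and an unadjusted p of at most 0.05, against 0.451% of 14415 tested genes, and none had an unadjusted p under 0.05. No gene of the table passed an adjusted p of 0.05 (0.0%). The adjusted p of the 10 genes were all at least 0.997 by limma. In 0 of 10 did the OT and OC ovaries stand apart without overlap, which was the case for 5.91% of the tested genes.

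The precision of this comparison differed between the genes. For Hsd3b1 the log2 fold change was -0.00 (95% interval -0.28 to 0.28), for Cyp11a1 -0.01 (-0.33 to 0.32), for Scarb1 -0.00 (-0.33 to 0.32) and for Fdx1 -0.13 (-0.39 to 0.12), so for these 4 genes changes of 2-fold lay outside the interval. The same held for Star (-0.28, interval -0.74 to 0.17), Hsd17b7 (-0.18, interval -0.57 to 0.21) and Nr5a1 (0.11, interval -0.43 to 0.64). For Hsd17b1 (-0.15, interval -1.41 to 1.11), Cyp19a1 (-0.30, interval -2.0 to 1.40) and Cyp17a1 (-0.59, interval -3.32 to 2.14) the interval held 2-fold changes in both directions. The estimate was below 0 for 9 of 10 genes, with a median of -0.14 against -0.01 over all tested genes. Those 9 signs were not independent, since the genes were measured in the same libraries, and several changed with the processing.

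Star and Hsd17b7 had their lowest ovary levels in OT mice. Star was 721, 709 and 604 FPKM in the OC ovaries and 399, 756, 626 and 503 FPKM in the OT ovaries. OT1 and OT4 were below every OC ovary and OT2 was above every one. Hsd17b7 was 290.3, 323 and 316 FPKM in the OC ovaries and 238, 336, 335 and 209 FPKM in the OT ovaries, with the same 2 libraries below and the other 2 above all controls. Nr5a1 was 56.8, 33.6 and 56.1 FPKM in the OC ovaries and 73.3, 43.6, 43.2 and 49.4 FPKM in the OT ovaries, with the highest value in OT1 and the lowest in OC2.

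Scarb1 and Fdx1 overlapped throughout. Scarb1 was 476, 443 and 526 FPKM in the OC ovaries and 521, 529.6, 521 and 366 FPKM in the OT ovaries. Fdx1 was 861, 687 and 735 FPKM in the OC ovaries and 717, 753, 692 and 607 FPKM in the OT ovaries. OT4 held the lowest value of both genes. Of the related lists, 0 of 20 other steroid enzymes, 0 of 25 cholesterol genes, 0 of 24 regulators and 0 of 7 steroid receptors were called in the ovary. Of 10 adipocyte markers, 6 were called higher in OT ovaries. The sum of the 10 was 148.5 to 263 FPKM in OC and 1763, 1278, 194 and 395 FPKM in OT1 to OT4, so OT3 lay within the OC range. All 10 are among the genes that the paper lists as raised in both organs, so this count is not independent of that result.

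**Figure D3:**
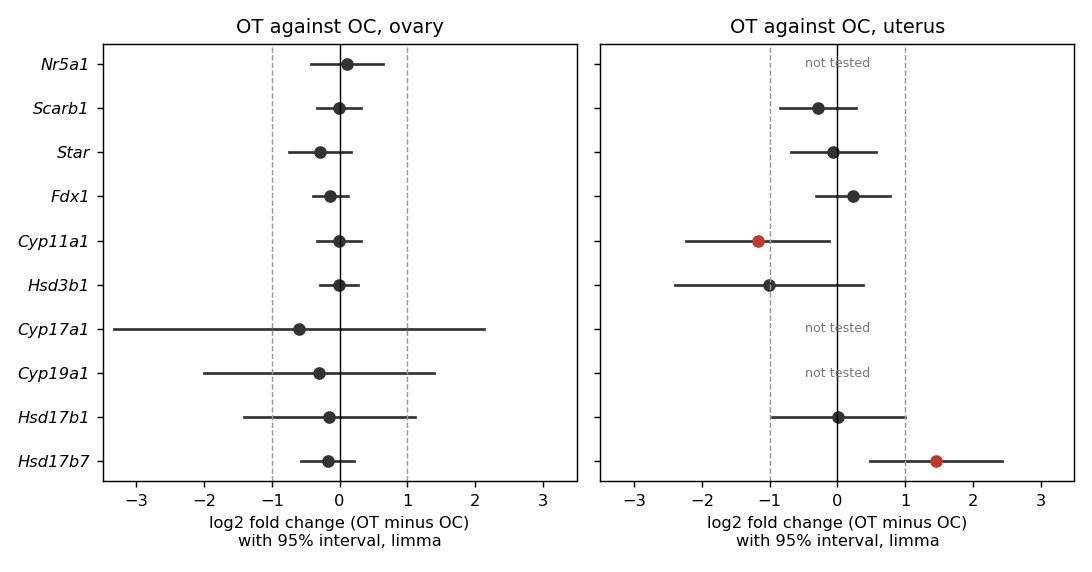
Log2 fold change of OT against OC with its 95% interval (limma) for each gene in the ovary (left) and the uterus (right); dashed lines mark 2-fold, red points the genes called at the cutoffs, and genes below the filter are written as not tested. In the ovary 0 of 10 were called, and in the uterus Hsd17b7 (1.46) and Cyp11a1 (-1.18) were.

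In the uterus 7 of the 10 genes passed the filter, and 2 were called between OT and OC, Hsd17b7 higher and Cyp11a1 lower, against 2.9% of 14151 tested genes. Neither passed an adjusted p of 0.05, which 0.0% of all genes did. Hsd17b7 was 0.737, 1.15 and 1.21 FPKM in the OC uteruses and 6.14, 2.32, 2.93 and 1.80 FPKM in the OT uteruses. All 4 OT libraries were above all 3 OC libraries, as was the case in either direction for 11.9% of tested genes. The log2 fold change was 1.46 (SE 0.42, 95% interval 0.48 to 2.43, adjusted p = 0.518 by limma), or 2.75-fold. By an exact two-sided permutation test of this gene alone, p was 0.0571, the smallest that 3 against 4 libraries can give. Without OT1, the highest library, the log2 fold change was 1.11 and still called. With a pseudocount of 1 it was 0.99, just under the cutoff of 2-fold.

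Genes of cholesterol synthesis were also higher in OT uteruses. Of the 25 cholesterol genes 5 were called higher and 0 lower, with a median log2 fold change of 0.73 against 0.01 over all genes. They were Hmgcs1 (1.02), an early enzyme of the synthesis, Msmo1 (1.10) and Sc5d (1.35), which act late in it, Insig1 (1.46), a regulator of its transcription, and Lipe (2.09), a lipase that frees stored cholesterol and fat. Sc5d was 8.27, 8.28 and 6.81 FPKM in the OC uteruses and 51.6, 12.0, 14.3 and 17.5 FPKM in the OT uteruses, so its groups did not overlap either.

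Fat markers differed far more in the same libraries. All 10 adipocyte markers were called higher in OT uteruses, Adipoq by 3.65 on the log2 scale (SE 0.70, adjusted p = 0.357). The paper lists all 10 among its genes raised in both organs of these same mice. Their count is therefore not independent of its result. Their summed FPKM was 64.9, 252 and 246 in the OC uteruses and 11670, 1252, 2273 and 1231 in the OT uteruses. Within the OT group Hsd17b7 and this sum had the same order, OT1 highest, then OT3, OT2 and OT4, with nearly equal sums in OT2 and OT4. In the OC group both were lowest in OC1, but the sum was highest in OC2 and Hsd17b7 in OC3. Of 7 markers of stratified epithelium 6 were called higher, with summed levels of 2.72 to 13.1 FPKM in OC and 43.7 to 774 FPKM in OT. The part of these tissues in the Hsd17b7 level was not tested.

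**Figure D4:**
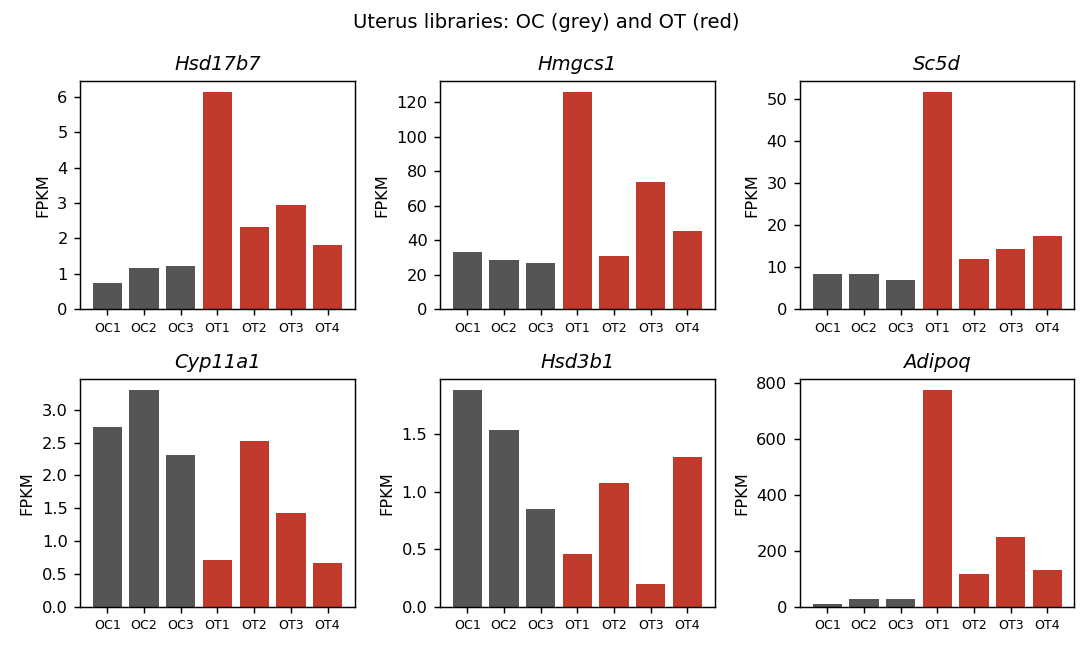
FPKM in each of the 7 uterus libraries (bars, axes from 0; grey OC, red OT) for Hsd17b7, the cholesterol synthesis genes Hmgcs1 and Sc5d, Cyp11a1, Hsd3b1 and the adipocyte marker Adipoq. Hsd17b7, Sc5d and Adipoq are highest in OT1, at 6.14, 51.6 and 777 FPKM, where Cyp11a1 is 0.719 FPKM.

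Cyp11a1 was 2.73, 3.31 and 2.31 FPKM in the OC uteruses and 0.719, 2.53, 1.44 and 0.665 FPKM in the OT uteruses. OT2 lay within the range of the controls and the other 3 below it. The log2 fold change was -1.18 (SE 0.46, 95% interval -2.23 to -0.13, adjusted p = 0.573 by limma). By an exact two-sided permutation test of this gene alone, p was 0.114. The call was lost without OC1 (-1.18), OC2 (-1.05), OC3 (-1.30), OT1 (-0.97) or OT4 (-0.94). Hsd3b1, the next enzyme, was 1.89, 1.54 and 0.851 FPKM in the OC uteruses and 0.455, 1.07, 0.199 and 1.31 FPKM in the OT uteruses, with a log2 fold change of -1.01 (SE 0.60, adjusted p = 0.626) that was not called.

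These are levels under 4 FPKM of genes whose ovary means were 2783 FPKM (Cyp11a1) and 2241 FPKM (Hsd3b1). Lhcgr, whose uterus mean was 0.112% of its ovary mean, was 0.128, 0.184 and 0.0826 FPKM in the OC uteruses and 0.0377, 0.0487, 0.0608 and 0.0701 FPKM in the OT uteruses, higher in the controls but too low to be tested. Nr5a2 was 1.57, 2.26 and 1.59 FPKM in the OC uteruses and 0.254, 0.665, 0.659 and 2.13 FPKM in the OT uteruses (log2 fold change -1.19, SE 0.59, adjusted p = 0.616), and was not called. The luteal list as a whole did not share this direction. Of 6 luteal markers tested in the uterus 4 had an estimate above 0, with a median of 0.53. These 6 include Oxtr and Parm1, whose uterus means were 51.3% and 24.0% of their ovary means. Inha had means of 3.82 FPKM in OC and 3.5 FPKM in OT. Zp3 and Fshr were at 0 in every uterus and had ovary means of 5.67 and 2.71 FPKM. The uterus mean of Cyp11a1 was 0.0703% of its ovary mean. The part of ovarian RNA in the Cyp11a1 level was not tested.

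The other genes tested in the uterus were not called. Star was 4.32, 4.26 and 5.62 FPKM in the OC uteruses and 4.0, 6.81, 4.75 and 3.15 FPKM in the OT uteruses (log2 fold change -0.06, SE 0.27). Scarb1 was 18.5, 35.7 and 35.8 FPKM in the OC uteruses and 22.9, 21.8, 22.5 and 27.0 FPKM in the OT uteruses, so that OC1 stood below all other libraries. Fdx1 was 17.1, 17.2 and 17.4 FPKM in the OC uteruses and 30.5, 16.1, 22.1 and 15.4 FPKM in the OT uteruses, with OT1 the highest. Hsd17b1 was 1.08, 0.634 and 0.824 FPKM in the OC uteruses and 0.893, 1.47, 0.495 and 0.738 FPKM in the OT uteruses. Of the other lists, 0 of 16 steroid enzymes and 0 of 6 steroid receptors were called, and among 18 regulators Prkar2b (1.99), a subunit of protein kinase A, and Cebpa (1.74), a transcription factor of fat and other cells, were called higher. Mrap and Mc2r, the accessory protein and the receptor of adrenocorticotropin signalling, were called higher as well (3.84 and 3.13); adipocytes are known to express both.

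Whether the OT effect differed between the organs was tested as an interaction in all 14 libraries, with no term for the mouse that each ovary and uterus share. None of the 10 genes passed an adjusted p of 0.05, as for all 14557 genes tested (0.0%), of which 746 had an unadjusted p under 0.05. The effect on Hsd17b7 was higher in the uterus than in the ovary by 1.63 on the log2 scale (SE 0.46, adjusted p = 0.844), and that on Cyp11a1 was lower (-1.17, SE 0.46, adjusted p = 0.844). Both had an unadjusted p under 0.05, and the other 8 genes did not.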

How the data were processed

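FPKM per gene, deposited by the authors in a table, were used for both organs of 3 OC and 4 OT mice, and each library was grouped by its label. Per the methods and the labels, the authors prepared stranded total RNA libraries, trimmed reads with Skewer, mapped them to mm10 with STAR 2.5 and quantified them with Cufflinks 2.2.1. All 21853 identifiers matched GENCODE release M21, which gave symbols and positions. The depth of the libraries is unknown, since FPKM hold no read counts and whole reads could not be recovered, so no count model was fitted. Total RNA libraries also hold unspliced RNA.

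Genes whose mean over the libraries fitted reached 0.5 FPKM were tested on log2(FPKM + 0.1) with limma 3.58.1 (lmFit and eBayes with a trend) in R 4.3.3. Fold changes on this scale understate changes of low genes. Between OT and OC a gene was called where it differed 2-fold or more with an unadjusted p not above 0.05, the cutoffs of the study, and Benjamini-Hochberg adjusted p over all tested genes were given beside it. The organs were compared and the interaction was tested over 14 libraries. Python 3.11.15, pandas 2.3.3 and matplotlib 3.10.9 were used for the other steps, and each limma fit was tested on simulated data.

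The members and the gene lists were chosen with earlier results of these data known. All 10 members are named. Of the other lists, genes called between OT and OC and at most 4 per list with the largest difference between the organs are named, with markers where a check needed them. Other genes, such as Lhcgr, Nr5a2, Inha, Aldh1a1, Insl3, Fdxr and the genes of the uterus plot, were picked with their values in view. For the 3 members with the largest SD over the ovaries, the 5 genes with the smallest root mean square difference are named. OC and OT mice share replicate numbers but are different animals. Ovary libraries with the same number deviated together with correlations of 0.0448 to 0.331, with a mean of 0.152 against -0.0755 for other numbers. For uterus libraries the correlations were -0.0275 to 0.0797, with a mean of 0.0178 against -0.0226. Deviations were taken from the mean of each group, so the mean for other numbers largely follows from that for the same number. With 3 pairs per organ, whether ovaries of the same number were more alike than others was not tested. The labels do not say what the numbers share. The main fits did not take the numbers as pairs. An ovary and a uterus with the same code in their labels, such as OC1, were taken to be from the same animal, which the labels do not state. They deviated together with correlations of 0.074 to 0.254. The organ and interaction fits had no term for the mouse, and an alternative had it as a block. Alternatives were the pseudocount, the filter, 75th percentile scaling, robust eBayes, a single fit of all libraries, a replicate block, leaving out each mouse, and, chosen after seeing the data, leaving out the OC2 and OT3 mice, whose ovaries had the most Hoxa10. P-values measure the spread between mice of 1 experiment.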

Additional observations from a re-analysis of the deposited data

Results flagged for a closer look

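In 17 sets of 4 OT libraries of a member, the gap of the outermost library to its neighbour was taken as a share of the range, in FPKM. It passed the critical value of 0.829 in 2 sets, where chance gives about 1 in 20 sets for normally distributed values. Cyp17a1 was 112.1 FPKM in the OT1 ovary, above the other OT ovaries at 1.62 to 17.6 FPKM. Scarb1 was 366.1 FPKM in the OT4 ovary, below the other OT ovaries at 521 to 529.6 FPKM. Sets of 3 OC libraries were not examined.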

How the results depend on the processing

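The number of members called in the uterus was 2, 0 with a pseudocount of 1, 1 without the OC2 and OT3 mice, and 1 to 2 without single mice. In the ovary, in the interaction and between the organs the numbers of members called were the same under every alternative run. With the replicate block, which leaves out OT4 because it has no OC partner, 2 members were called in the uterus: Hsd3b1 was called (-1.33, adjusted p = 0.305) and Cyp11a1 was not (-0.94, adjusted p = 0.321). With the mouse as a block in the organ and interaction fits, no call of a member changed. In the comparison of OT with OC the replicate block moved the number of all genes called from 65 to 103 in the ovary and from 410 to 666 in the uterus. The single fit of all 14 libraries called 3 members in the uterus, Hsd3b1 among them (adjusted p = 0.263).

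Estimates near 0 changed sign. With the block Cyp11a1 was 0.0393, Hsd3b1 0.0389 and Scarb1 0.125 in the ovary, and Star 0.11 in the uterus. With 75th percentile scaling Hsd3b1 was 0.0029 and Scarb1 0.00092 in the ovary, and Hsd17b1 -0.0123 in the uterus. With a pseudocount of 1 the interaction of Cyp19a1 was 0.19. Without the OC2 and OT3 mice Nr5a1 was -0.0619 in the ovary, and the interactions of Cyp19a1 and Nr5a1 were 0.73 and 0.28. Without single mice the ovary estimates ran from -0.0945 to 0.072 for Cyp11a1, from -1.60 to 0.41 for Cyp17a1, from -1.07 to 0.29 for Cyp19a1, from -0.072 to 0.052 for Hsd3b1, from -0.84 to 0.23 for Hsd17b1, from -0.14 to 0.23 for Nr5a1 and from -0.0632 to 0.125 for Scarb1. In the uterus they ran from -0.26 to 0.11 for Star and from -0.23 to 0.23 for Hsd17b1, and in the interaction from -0.41 to 1.87 for Cyp17a1, from -1.02 to 0.57 for Cyp19a1, from -0.43 to 0.69 for Hsd17b1 and from -0.70 to 0.22 for Nr5a1. The cause was not tested.

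Over all genes, 18 to 159 were called in the ovary and 259 to 666 in the uterus across the alternatives. In the ovary the number was 18 with a pseudocount of 1, 159 with no filter, 137 without OT3 and 145 without the OC2 and OT3 mice. In the uterus it was 259 with a pseudocount of 1. The interaction had 8 calls without OT2 and 0 otherwise. The depth of the libraries is unknown, so the precision of the levels under 1 FPKM in the uterus could not be given.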
